A study of Mus musculus with 5 samples.

Results

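The genes examined here are Sncg, which encodes gamma-synuclein, and Nefl, which encodes the light chain of the neurofilament. They were found as the probes of the value table whose only annotated gene symbol is Sncg or Nefl. That gave 3 probes, 1 for Sncg (number 19904) and 2 for Nefl (numbers 10260 and 15386), among 11529 single-symbol probes with a value on all 5 arrays, and 2 genes among 8798. All 3 probes had a value on every array. RNA of 2 pools was compared. One came from the retina of adult C57/B6 mice and carried the dye Cy5 on every array, and the other from the cortex of Swiss-Webster mice at postnatal day 1 and carried Cy3. The same 2 pools were hybridised to 5 two-colour Agilent arrays, which the labels call technical replicates, as a measure of the repeatability of the platform. Tissue, age, strain and dye therefore differ together and cannot be told apart, and no dye swap was made. The labels do not say how many animals, or of which sex, went into a pool.

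Synucleins are small, natively unfolded proteins that bind membranes, and alpha- and beta-synuclein concentrate in presynaptic terminals. Gamma-synuclein is known from peripheral sensory and motor neurons and, in the retina, from ganglion cells, the neurons whose axons form the optic nerve. Neurofilaments are the intermediate filaments of neurons. The light chain forms the core of the filament together with the medium and heavy chains and alpha-internexin, and the filaments set the calibre of large axons. In the retina neurofilaments are known from ganglion cells and horizontal cells, and in cortex from projection neurons as they mature.

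A value below is a log2 ratio, retina divided by cortex, so that 1 is a 2-fold higher level in retina. The base of the deposited values (log10) and the direction (retina over cortex) are likely rather than stated. With the opposite direction all signs below would flip. Means are given ± SD with n = 5 arrays. The p-values are from limma, adjusted with Benjamini-Hochberg over all probes or all genes tested. A probe or gene is called higher or lower only where its ratio was tested to exceed 2-fold, with an adjusted p below 0.05, which is called the 2-fold test. These tests cover error between arrays of the same pools and not the spread between animals. A ratio gives no level in either tissue, and in pooled tissue fewer cells of a type and less RNA per cell cannot be told apart. Across all genes the arrays correlated with Pearson's r from 0.878 to 0.956, and the median SD between arrays was 0.085.

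The probe letters were not used here. The promoter of Sncg, 250 bases before to 50 after the transcript start, is shown because Sncg had the higher ratio of the 2 genes. The promoter of Sncb, the beta-synuclein gene, is shown beside it because it was the only other synuclein measured. Both are RefSeq sequences of build GRCm38.p6 on the minus strand, chr14:34374620-34374919 and chr13:54766546-54766845. Nefl had no entry in that table. Capitals mark matches to any of 4 motifs searched on both strands, TATAAA (the TATA box), GGGCGG (a GC box), CCAAT and ATTAAT (an AT-rich homeodomain core).
Sncg: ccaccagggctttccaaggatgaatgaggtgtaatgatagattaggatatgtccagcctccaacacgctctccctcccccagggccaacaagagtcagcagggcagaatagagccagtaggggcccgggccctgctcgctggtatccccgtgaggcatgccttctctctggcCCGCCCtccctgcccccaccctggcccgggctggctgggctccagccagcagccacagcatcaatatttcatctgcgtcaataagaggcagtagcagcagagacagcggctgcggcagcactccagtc
Sncb: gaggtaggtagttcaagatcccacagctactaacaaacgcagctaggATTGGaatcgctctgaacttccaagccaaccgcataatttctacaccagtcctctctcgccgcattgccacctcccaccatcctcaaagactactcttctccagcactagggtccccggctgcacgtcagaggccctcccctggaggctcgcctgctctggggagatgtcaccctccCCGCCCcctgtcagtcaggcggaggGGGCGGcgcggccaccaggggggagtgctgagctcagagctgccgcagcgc
The Sncg sequence held 1 motif match, a GC box on the other strand that began 78 bases before the start. Sncb held 2 GC boxes, which began 26 bases and 1 base before the start, and 1 CCAAT match on the other strand, 203 bases before it. No 2 matches overlapped. Among 32851 promoters of the same length, 35.7% held GGGCGG, 37.4% CCAAT, 13.6% TATAAA and 4.75% ATTAAT. The G and C content was 61.3% for Sncg and 62.0% for Sncb, against a median of 52.7%. A match is a match of letters only, and the arrays did not measure promoters.

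On every array the Sncg signal favoured adult retina over newborn cortex. Its log2 ratio was 1.85 on array 1, 1.95 on array 2, 1.86 on array 3, 1.96 on array 4 and 1.73 on array 5. Array 4 was highest and array 5 lowest, and all values lay well above the 2-fold line. In linear terms the ratio ran from 3.32-fold on array 5 to 3.90-fold on array 4. The mean was 1.87 ± 0.09 (SD, n = 5), or 3.66-fold, with a 95% interval of 1.77 to 1.97 from limma. Sncg passed the 2-fold test with an adjusted limma p of 1.59e-05, where 2.78% of all probes were called higher. It ranked 95th from the top of 8798 genes.

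Both Nefl probes read higher in retina on every array, but only 1 passed the 2-fold test. Probe 10260 stood at 1.47, 1.49, 1.60, 1.36 and 1.66 on arrays 1 to 5. Array 5 was highest and array 4 lowest, the reverse of Sncg. The mean was 1.52 ± 0.12 (SD, n = 5), or 2.86-fold, and this probe passed with an adjusted limma p of 5.14e-04. Probe 15386 stood at 1.13, 1.04, 0.94, 0.97 and 0.96, above the 2-fold line on arrays 1 and 2 and just below it on the others. Its mean was 1.01 ± 0.08 (SD, n = 5), or 2.01-fold. Its 95% interval of 0.92 to 1.09 holds the 2-fold line, and it did not pass (adjusted limma p of 1.00). Against a ratio of 0 it did pass (adjusted limma p of 1.82e-06), as did 36.2% of all probes in that direction. The 2 probes did not overlap, since the lowest value of probe 10260, 1.36, exceeded the highest of probe 15386, 1.13. How often this holds for probes of other genes was not counted.

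**Figure D1:**
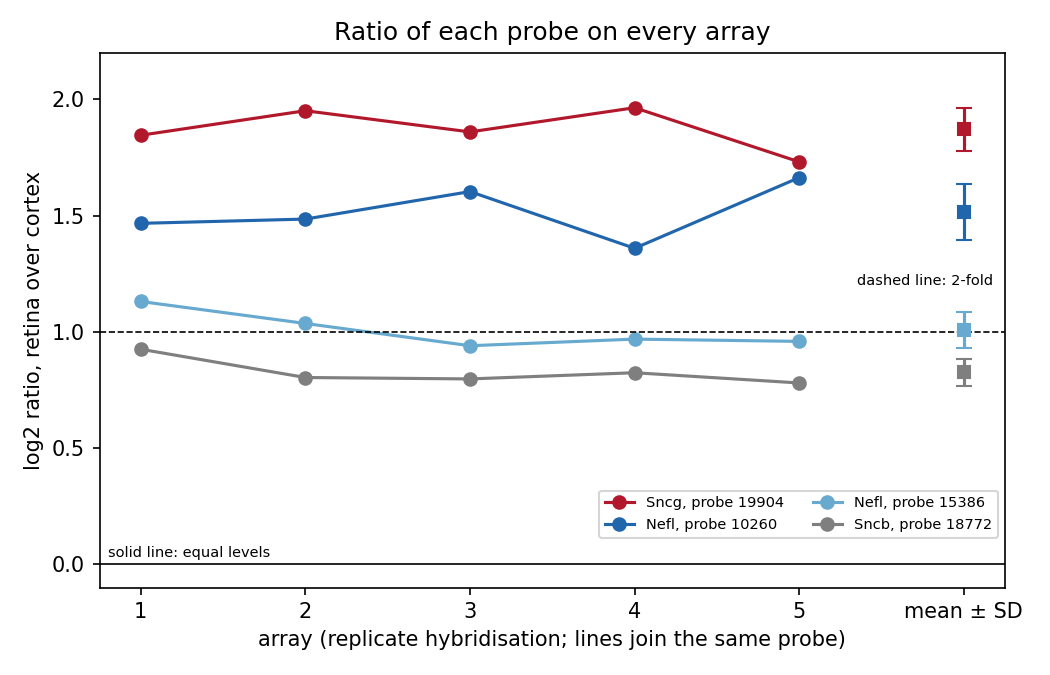
The log2 ratio of retina over cortex (vertical axis) is plotted for each of the 5 arrays (horizontal axis), with 1 line per probe and squares with bars for the mean ± SD. Sncg lies between 1.73 and 1.96 on every array, Nefl probe 10260 between 1.36 and 1.66, Nefl probe 15386 between 0.94 and 1.13 around the dashed 2-fold line, and Sncb between 0.78 and 0.93 below it.

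Taken as the mean of its probes, Nefl was higher in retina at 1.26 ± 0.06 (SD, n = 5), or 2.40-fold. The values were 1.30, 1.26, 1.27, 1.16 and 1.31 on arrays 1 to 5. The adjusted limma p of the 2-fold test was 0.00113, where 2.8% of all genes were called higher, and Nefl ranked 227th from the top. With probe 15386 alone the gene did not pass (adjusted limma p of 1.00). The 20 alternative settings include other minimum folds, so not all are the 2-fold test. Over them the adjusted limma p ran from 4.98e-06, with a minimum of 1.5-fold, to 1.00, and Nefl passed in 17. It did not pass with a minimum of 4-fold, with values read as log2, or with the probe nearest to 0. The mean spread less over arrays (SD 0.06) than either probe alone (0.12 and 0.08).

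The gap between the Nefl probes repeated on every array but varied in size. Probe 10260 exceeded probe 15386 by 0.34, 0.45, 0.66, 0.39 and 0.70 on arrays 1 to 5. The mean gap was 0.51 ± 0.17 (SD, n = 5), or 1.42-fold between the ratios, and was above 0 on 5 of 5 arrays. Among 2086 genes with several probes the median range of probe means was 0.38, and 61.6% of them had a range no wider than that of Nefl. Which part of the Nefl transcript each probe reads was not known.

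Sncg had a higher ratio than Nefl on all 5 arrays. The difference was 0.55, 0.69, 0.59, 0.80 and 0.42 on arrays 1 to 5, with a mean of 0.61 ± 0.14 (SD, n = 5). Against Nefl probe 10260 alone it narrowed to 0.35 ± 0.20 (SD, n = 5) and was smallest on array 5, at 0.07. These are differences between ratios and say nothing of which transcript was more abundant. Each of the 4 within-array differences tested, among probes or genes, had the same sign on 5 of 5 arrays. The exact two-sided sign-flip permutation p was 0.0625 for each, also after adjustment over the 4, and 5 arrays cannot give a smaller one.

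Of 4 listed synuclein genes (the 3 synucleins and the alpha-synuclein partner Sncaip), only Sncg and Sncb were measured. Sncb, whose product is a presynaptic relative of alpha-synuclein, stood at 0.93, 0.80, 0.80, 0.82 and 0.78 on arrays 1 to 5. Every value lay above 0 and below the 2-fold line. The mean was 0.83 ± 0.06 (SD, n = 5), or 1.77-fold, and Sncb did not pass the 2-fold test (adjusted limma p of 1.00). It ranked 524th from the top, still in the upper part of all genes. Sncg exceeded Sncb by 1.04 ± 0.11 (SD, n = 5), with 0.92 on array 1 as the smallest difference and 1.15 on array 2 as the largest. The ratios of the 2 synucleins did not overlap, but how often this holds for other pairs of genes was not counted. The difference between Sncg and Sncb is the third of the 4 tested above.

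**Figure D2:**
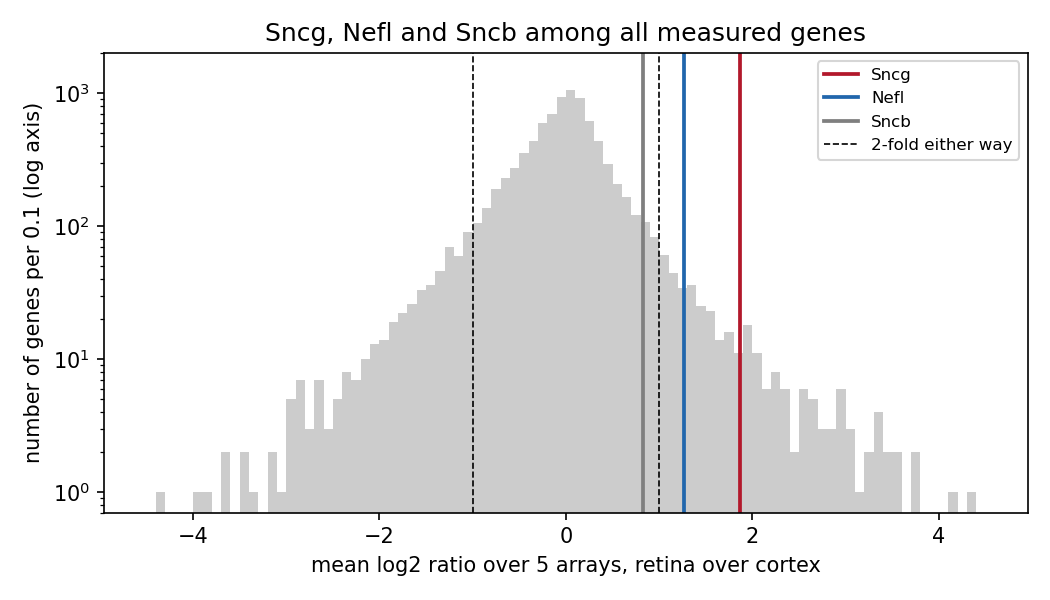
The histogram shows the mean log2 ratio of all 8798 genes (horizontal axis, retina over cortex) with the number of genes per bin on a log axis. Vertical lines mark Sncg at 1.87, Nefl at 1.26 and Sncb at 0.83, all on the upper side, with Sncb inside the dashed 2-fold lines and the other two outside.

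Of the 5 listed neuronal intermediate filament genes only Nefl was measured, so its partners Nefm, Nefh, Ina and Prph give no value here. Among 12 other intermediate filament genes 9 were measured, of which 1 was higher in retina and 0 lower (0 also at an unadjusted limma p below 0.05), and 8 missed the threshold, where 2.8% of all genes were called higher. The list median was 0.04, close to the -0.0048 of all genes. The 1 higher gene was Krt18, a keratin of simple epithelia, at 2.34 ± 0.08 (SD, n = 5), or 5.05-fold. Its probes stood at 3.07 ± 0.11 and 1.61 ± 0.08 and both passed. The glial and progenitor filament genes Vim (0.04 ± 0.12) and Nes (-0.48 ± 0.35) did not pass.

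The list of genes that act on neurofilaments held 22 cross-linkers, kinases, motors and turnover factors, of which 15 were measured. In limma's 2-fold test 0 were higher, also at an unadjusted p below 0.05, and 1 was lower, where 3.83% of all genes were called lower. The lower gene was Dync1i1, an intermediate chain of the dynein motor, at -1.18 ± 0.04 (SD, n = 5). The list median was -0.24, and 13 of the 15 genes had a negative mean, as had 4449 of all 8798 genes. Dst had probes of either sign (-0.46, 0.38, -0.81 and 0.27), and Dync1h1 had 1 probe at 0.05. Trim2, a ubiquitin ligase that targets the neurofilament light chain, stood at -0.95 ± 0.18 and did not pass. Kif5a, a kinesin that carries neurofilaments along axons, stood at -0.40 ± 0.07 and Cdk5, a kinase of the heavy and medium chains, at -0.24 ± 0.01, and neither passed. The Cdk5 probes lay apart, at -0.01 and -0.47. Dctn1, the largest dynactin subunit, stood at 0.74 ± 0.11, the highest of the list, and did not pass.

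The measured genes of the microtubule and spectrin list, called the axonal skeleton list below, had mean ratios of the opposite sign to Nefl. The list also holds genes that act on microtubules without being parts of them. Of 19 listed microtubule and spectrin genes 12 were measured, and all 12 had a negative mean, as had 4449 of all 8798 genes. Of the 12, 6 were lower in retina and 0 higher, and at an unadjusted p below 0.05 the counts were 7 and 0. Among all genes 3.83% were called lower. The list median was -1.31. The lower genes were Mapt, Map1b, Map2 and the stathmin genes Stmn1, Stmn2 and Stmn4. No measured spectrin or ankyrin gene passed. The spectrin genes Sptan1 and Sptbn1 stood at -0.78 ± 0.17 and -0.73 ± 0.16. The ankyrin genes Ank3 and Ank2 stood at -0.51 ± 0.06 and -0.17 ± 0.13, and the Ank2 probes differed in sign (0.25 and -0.58). Stmn4, a tubulin-binding stathmin, stood at -2.35 ± 0.04 (SD, n = 5), or 5.09-fold lower. Mapt, the gene of the axonal microtubule protein tau, stood at -2.11 ± 0.03 (SD, n = 5), and its 3 probes, at -1.75, -1.94 and -2.65, each passed. Many of these genes are also known from growing axons. Of 11 immature neuron markers 9 were lower, 0 higher (0 also at an unadjusted limma p below 0.05), against the same 3.83% of all genes, and the median was -2.30, led by Dcx at -3.99 ± 0.04 and Gap43 at -3.19 ± 0.13. Stmn1 is in both lists. Age and tissue cannot be told apart in these pools, for these genes as for Nefl and Sncg.

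**Figure D3:**
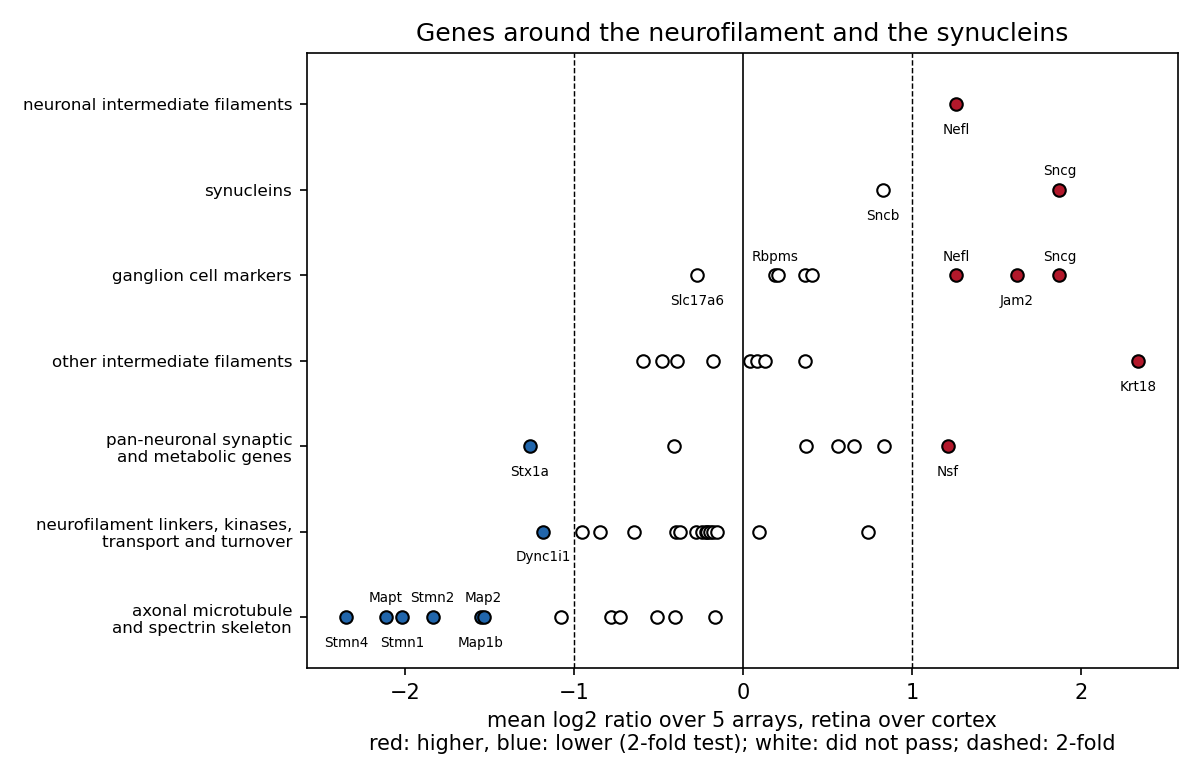
Each point is the mean log2 ratio of 1 gene over 5 arrays (horizontal axis, retina over cortex), in rows for 7 gene lists. Red points passed the 2-fold test as higher and blue points as lower. Nefl, at 1.26, lies on the other side of 0 from all 12 measured microtubule and spectrin genes.

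The name ganglion cell genes was set beside other markers of these neurons. Of 27 listed genes, Sncg and Nefl included, 8 were measured. In retina 3 of them were higher and 0 lower (0 also at an unadjusted limma p below 0.05), and 5 missed the threshold, where 2.8% of all genes were called higher. Sncg and Nefl are 2 of these 3, so only the other 6 genes were read beside the name. Ratios of pooled tissue do not show which cells hold a transcript, and a marker also present in cortex reads lower. Besides Sncg and Nefl the higher gene was Jam2, a junctional adhesion molecule, at 1.62 ± 0.10 (SD, n = 5). Rbpms, an RNA-binding protein used as a marker of all ganglion cells, stood at 0.19 ± 0.04 and its relative Rbpms2 at 0.37 ± 0.09. The vesicular glutamate transporter gene Slc17a6 stood at -0.27 ± 0.11. The transcription factor genes Ebf3 and Irx3 stood at 0.41 ± 0.06 and 0.21 ± 0.23, and the Ebf3 probes differed in sign (0.92 and -0.10). None of these 5 passed. The defining factors Pou4f1 and Pou4f2 and the surface protein gene Thy1 were not measured. The list median was 0.39 with Sncg and Nefl included. With 1 of the 6 measured markers besides Sncg and Nefl past the test, the cell type is not named from these data, and both genes are called by their symbols.

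Markers of other cells that may hold these transcripts were counted in the same way, against 2.8% of all genes called higher and 3.83% called lower. Of 10 measured amacrine and horizontal cell markers 4 were higher, 0 lower (0 also at an unadjusted limma p below 0.05) and 6 not passed, with a median of 1.00 and a range from -0.42 to 2.99. Pax6, a homeobox factor of amacrine and ganglion cells, stood at 2.99 ± 0.03, and Septin4, a septin, at 2.33 ± 0.05. Of the 6 that did not pass, Lhx1 stood at 1.01 ± 0.69, Gad1 at 0.99 ± 0.11 and Calb1 at 0.73 ± 0.09. Onecut2 (0.11 ± 0.09) and Th (0.11 ± 0.15) stood near 0, and Meis2 stood at -0.42 ± 0.07. Of 7 pan-neuronal synaptic genes 1 was higher, 1 lower and 5 not passed, with a median of 0.56. Nsf, the fusion ATPase, stood at 1.21 ± 0.08, from probes at 1.98 and 0.44 of which only the first passed, and Stx1a, a syntaxin, at -1.26 ± 0.03. Gamma-synuclein is also known from fat cells. Of 7 listed adipocyte genes 2 were measured, Fabp4, a lipid-binding protein, at 1.15 ± 0.07, which was higher, and Pparg at 0.52 ± 0.17, which did not pass, while the defining Adipoq and Plin1 were not measured. The part of any of these cells in the ratios of Sncg and Nefl was not tested.

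Further marker lists were read against the same shares of 2.8% higher and 3.83% lower among all genes. All 3 measured photoreceptor genes were higher, led by Cdhr1 at 4.30 ± 0.05 and Opn1sw at 3.28 ± 0.09. Of 4 measured glial genes 2 were higher, Dkk3 at 2.69 ± 0.08 and Clu at 2.18 ± 0.15, 1 was lower and 1 did not pass. The lower gene was the connexin gene Gja1 at -1.48 ± 0.14, with probes at -0.51 and -2.45. Of 3 measured oligodendrocyte genes none passed limma's 2-fold test, nor at an unadjusted p below 0.05, and the farthest from 0 was Olig1 at -1.01 ± 0.07.

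The genes with the ratios nearest to those of Sncg and Nefl were found by the root-mean-square difference over the 5 arrays. For Sncg these were Tob2, of the family of antiproliferative deadenylation factors, at a distance of 0.07, Prkab1, a subunit of the AMP-activated kinase, at 0.09, and Fam3c, a secreted protein, at 0.10. Their mean ratios were 1.88, 1.84 and 1.83. For Nefl these were Ybx3, a cold-shock nucleic acid binding protein, at 0.05, Agtrap, an angiotensin receptor partner, at 0.07, and Nop53, a ribosome assembly factor, at 0.07. Their mean ratios were 1.26, 1.27 and 1.27. Within a distance of 0.1 lay 2 genes for Sncg and 20 for Nefl. With 1 pair of pools on every array, nearness here is little more than a similar mean ratio.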

How the data were processed

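The deposited values are 1 column per array of signed values for 21446 probes, read as log10 ratios from the file itself: the medians lie at or next to 0 and the values end exactly at 2 and -2, where 5 values lie. Which scanner software, background correction, dye normalization and centring the authors used is not given in the sources used here, and spot signals and signal over background are unknown. The number of arrays limits the precision. Multiplication by 3.32 turned them into log2 ratios, and exact zeros (174 to 1068 a column) were treated as missing.

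The platform annotation gave 1 symbol for 11813 probes and several for 559, and did not list 9074. Symbols were updated through the gene identifier in RefSeq (GRCm38.p6), which named 11782. Probes with a value on all 5 arrays were fitted (11529 probes). A gene was the mean of its probes. limma version 3.58.1 in R version 4.3.3 fitted an intercept (lmFit), tested against 0 (eBayes) and against 2-fold (treat), two-sided, with Benjamini-Hochberg adjustment. The procedure was tested on simulated data. Differences between probes or genes were tested with an exact sign-flip permutation.

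The members and gene lists were chosen with earlier results of these data known. Named genes were Sncg, Nefl, all measured synucleins, neurofilaments and ganglion cell markers, from each other list the 2 farthest from 0 that passed (or the 1 farthest where none did), and the 3 nearest to each member. Other list members were added after their values were seen. These were Vim, Nes, Trim2, Kif5a, Cdk5, Dctn1, Gja1, Pparg, Ank2, Dst, Dync1h1, Lhx1, Gad1, Calb1, Onecut2, Th and Meis2. Krt8, Lmnb1, Stmn1, Stmn2, Map1b, Map2, Sptan1, Sptbn1 and Ank3 were added in the same way. Alternatives covered normalization, filters, probe rule, prior, weights, minimum fold, log base and arrays left out.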

Additional observations from a re-analysis of the deposited data

Results flagged for a closer look

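Of 37 measures checked, 3 had 1 array far from the other 4, where chance flags about 5% of such groups, and Sncg, the Nefl probes and the differences between them were not among these. In all 3 the array apart was array 5. Clu read 2.44 there and 2.07 to 2.14 elsewhere. Fabp4 read 1.03 there and 1.17 to 1.21 elsewhere. Tob2, the gene nearest to Sncg, read 1.82 there and 1.89 to 1.90 elsewhere. Nes was not among the measures checked. It read -1.09 on array 2, against -0.39 to -0.26 on the other arrays.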

How the results depend on the processing

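Of 181 alternative values, 160 kept their sign and their side of the 2-fold test, or stayed within 1.5 times the count or within the SD of the difference. None reversed. Part of this tally could not come out otherwise. Sncg has 1 probe, so its gene and probe ratios repeat each other and the probe rule cannot move them. Centring the arrays, or leaving 1 array out, cannot move a within-array difference beyond its SD. The fit without arrays 1 and 4, and the alternatives for the axonal skeleton count, were chosen after seeing the data. With a minimum of 4-fold, Sncg (1.87), Nefl (1.26) and Nefl probe 10260 (1.52) did not pass, 105 genes passed in place of 583, and the ganglion cell and axonal skeleton lists held 0 and 1 calls in place of 3 and 6. With a minimum of 1.5-fold, 1408 genes passed and Nefl probe 15386 (1.01) did, with an adjusted limma p of 1.46e-04. Both follow from the minimum itself. Read as log2, Sncg stood at 0.56, Nefl at 0.38 and Nefl probe 10260 at 0.46, and none passed. That reading left 7 genes, with 0 in both lists, and differences of 0.18 (Sncg minus Nefl) and 0.15 (between the Nefl probes). With the probe nearest to 0, Nefl fell below the test at 1.01 and Sncg exceeded it by 0.86, and with the probe farthest from 0 by 0.35. With any single array left out the ratios were 1.85 to 1.91 for Sncg, 1.25 to 1.29 for Nefl, 1.48 to 1.56 for probe 10260 and 0.98 to 1.02 for probe 15386. The call of each was the same as with all arrays. Signal over background is unknown, so its effect on these ratios was not tested.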

Other observations

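Krt18 and Krt8 encode keratins known to pair in simple epithelia. Both Krt18 probes were higher in retina, while the Krt8 probes stood at 0.07 ± 0.14 and 0.10 ± 0.03 (SD, n = 5) and did not pass. The nuclear lamin gene Lmnb1 read -1.95 on array 2, against -0.38 to -0.13 elsewhere, with an SD of 0.77.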
